A study of Mus musculus with 9 samples.

Results

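Selp, Ackr1, Vcam1, Icam1 and Icam2 encode adhesion and chemokine-binding molecules of postcapillary venules and activated endothelium. They were taken by gene symbol from a table of 13192 genes, and all 5 were found. The data were read counts per gene, made from apex tissue of hearts; the mice were wild type, male and of strain C57BL/6J. In the AAV-Osm group (n = 5 libraries) an adeno-associated virus named for Osm, the gene of oncostatin M, had been injected into a leg muscle, the right gastrocnemius, when mice were 10 weeks old, and in the AAV-Null group (n = 4) a control vector was given the same way. Each injection held 1e+11 viral particles, and hearts were collected 12 weeks later. The series text names 5 samples per group as submitted; 1 of those given AAV-Null is not analysed here. The promoter of the vectors is not given in the sources used here, and Osm itself was not analysed here, so the labels could not be checked against it. Oncostatin M belongs to the interleukin-6 cytokines, which share the receptor chain gp130, and endothelial cells are among its targets.

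Blood leukocytes leave the circulation mainly through venules, in steps. Selectins on the vessel wall slow the cell so that it rolls, chemokines held on the endothelial surface activate its integrins, and the integrins then bind members of the immunoglobulin family on the endothelium. Selp encodes P-selectin, which endothelial cells and platelets keep in storage granules and bring to the surface on activation. Ackr1 encodes an atypical chemokine receptor that binds and carries chemokines without the usual G protein signal, on venular endothelium and on red cells. Vcam1 encodes the ligand of the alpha4 integrins, and Icam1 and Icam2 encode ligands of the beta2 integrins, Icam1 being inducible by cytokines and Icam2 being present on resting endothelium.

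The genes were chosen by their measured fold changes between AAV-Osm and AAV-Null hearts, known from an earlier reading of the same libraries. Their differences between the groups are therefore a description, and the adjusted p-values beside them, which come from the fit over all genes, are no independent evidence. Selp and Ackr1 were the members that were higher in AAV-Osm hearts, 4.31-fold and 2.83-fold in edgeR, both at low counts. Selp passed an adjusted p of 0.05 over all genes and Ackr1 did not. Vcam1 and Icam1 had log2 fold changes of -0.05 and -0.15, and Icam2 was 1.38-fold lower in AAV-Osm without passing. At an unadjusted p under 0.05 edgeR gave 3 of the 5, Selp and Ackr1 higher and Icam2 lower, where 5.97% of all genes passed, 2.89% higher and 3.09% lower; since this contrast chose the genes, nothing is read from that count.

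Promoter sequences are shown for the pair with the higher levels, Selp and Ackr1, beside Icam1, the inducible member whose log2 fold change lay within its SE of 0. They come from RefSeq on GRCm38.p6, the assembly that mm10 names, and hold 250 bases before the start site and the first 50 after it. Of the 5 members 3 matched that table. Capitals mark matches, on either strand, to 6 motifs. For STAT proteins, which oncostatin M receptors activate, the letters searched were TTCNNNGAA. For GATA factors, which act in blood and endothelial cells, they were AGATAA. For the stress- and cytokine-responsive factor AP-1 the search used TGANTCA. For ETS factors, which are common at endothelial genes, it used CCGGAA. For the TATA box of core promoters it used TATAAA. For NF-kappaB, the main inflammatory factor at adhesion genes, it used GGGRNNYYCC, with R for A or G and Y for C or T.
Selp (chr1:164115014-164115313, plus strand): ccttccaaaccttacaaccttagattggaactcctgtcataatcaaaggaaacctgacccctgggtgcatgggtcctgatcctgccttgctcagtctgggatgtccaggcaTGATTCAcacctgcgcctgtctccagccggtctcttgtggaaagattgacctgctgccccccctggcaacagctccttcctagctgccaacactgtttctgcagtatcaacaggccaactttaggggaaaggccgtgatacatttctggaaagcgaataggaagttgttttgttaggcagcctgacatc
Ackr1 (chr1:173333454-173333753, minus strand): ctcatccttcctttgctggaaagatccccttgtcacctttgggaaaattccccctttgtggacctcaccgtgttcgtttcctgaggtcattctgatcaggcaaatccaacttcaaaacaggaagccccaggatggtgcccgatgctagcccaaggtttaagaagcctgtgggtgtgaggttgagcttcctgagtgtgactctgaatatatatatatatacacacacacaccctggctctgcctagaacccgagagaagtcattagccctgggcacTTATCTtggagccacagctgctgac
Icam1 (chr9:21015690-21015989, plus strand): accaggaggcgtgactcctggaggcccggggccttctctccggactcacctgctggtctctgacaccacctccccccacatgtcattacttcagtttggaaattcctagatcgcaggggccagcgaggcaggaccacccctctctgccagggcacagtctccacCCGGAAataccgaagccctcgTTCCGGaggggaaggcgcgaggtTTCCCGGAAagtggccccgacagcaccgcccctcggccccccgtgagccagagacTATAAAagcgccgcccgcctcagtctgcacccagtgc

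The Selp window held 1 match, to AP-1, beginning 139 bases before the start site. The Ackr1 window held 1 match, to GATA on the opposite strand, beginning at base 26 after the start site. In humans a GATA motif in the promoter of this gene is known to be needed for its expression in red cell precursors. The Icam1 window held 3 ETS matches, 1 match to the TATA letters that begins at base 14 after the annotated start site, and 1 STAT match that begins 42 bases before the start site and overlaps the last ETS match. Over all 32851 promoter windows of that length, 7.81% held the AP-1 letters, 11.2% GATA, 14.9% ETS, 13.6% the TATA letters, 8.30% STAT and 8.46% NF-kappaB. The 3 windows share no motif of this set, and none held the NF-kappaB letters. This says only that those exact letters are absent, as sites that depart from them were not searched for. Vcam1 and Icam2 are not among the matched entries.

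Libraries held 11841106 to 30625134 counted reads. All 10 cardiomyocyte markers were in the table, and their summed level ran from 75797 to 101801 CPM (counts per 1e+06, scaled by TMM factors) in AAV-Osm and from 78484 to 97494 CPM in AAV-Null libraries. All 16 pan-endothelial markers were present, summing to 1115 to 1302 CPM in AAV-Osm and 1201 to 1569 CPM in AAV-Null. Over all genes, edgeR's quasi-likelihood test called 16 (0.121%), 11 higher (0.0834%) and 5 lower (0.0379%) in AAV-Osm. The labels do not state outright that every library is from its own animal; the p-values measure spread among libraries, part of which may be technical.

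P-selectin was the rarest of these transcripts for its length in AAV-Null hearts. Selp (chromosome 1, 164115264 to 164150026, plus strand, mm10) had 55, 23, 14, 20 and 50 reads in AAV-Osm 1 to 5, against 5, 12, 9 and 11 reads in AAV-Null 1 to 4. Scaled, it was at 2.19, 1.25, 0.897, 1.74 and 2.37 CPM in AAV-Osm 1 to 5, against 0.251, 0.494, 0.296 and 0.538 CPM in AAV-Null 1 to 4. All 5 AAV-Osm libraries lay above the highest AAV-Null library, AAV-Osm 1 and AAV-Osm 5 being highest and AAV-Osm 3 nearest to the controls. Groups that did not overlap in this direction were seen for 1.05% of all genes. Selp averaged 1.69 ± 0.621 CPM in AAV-Osm (SD, n = 5) and 0.395 ± 0.142 CPM in AAV-Null (SD, n = 4), and the log2 fold change was 2.11 (SE 0.36, edgeR adjusted p = 0.0499). By fold change it was number 5 from the highest of all genes tested, and by p number 16, the last of the genes called.

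Counting error was large at these depths. The exact 95% Poisson interval of AAV-Null 4 reached 0.963 CPM, the highest upper bound among the controls, and the lower bounds of 3 AAV-Osm libraries (1, 4 and 5) lay above it. For AAV-Osm 3 the interval was 0.491 to 1.51 CPM and for AAV-Osm 2 it was 0.794 to 1.88 CPM, and both overlapped that of AAV-Null 4. Such intervals cover counting error only. The Selp call was lost in 14 of 21 alternatives, including 8 of the 9 fits that each left out 1 library, while its log2 fold change stayed between 1.88 and 2.28. Among the alternatives that kept the call, the fit without the low-count filter only repeated the main fit, as both held all 13192 genes.

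The chemokine-carrying receptor showed the same kind of difference at still lower counts. Ackr1 (chromosome 1, 173331886 to 173333503, minus strand) had 28, 6, 10, 10 and 20 reads in AAV-Osm 1 to 5, against 5, 5, 8 and 8 reads in AAV-Null 1 to 4. That gave 1.12, 0.327, 0.641, 0.871 and 0.950 CPM in AAV-Osm 1 to 5, against 0.251, 0.206, 0.263 and 0.391 CPM in AAV-Null 1 to 4. The groups overlapped through AAV-Osm 2, which lay below AAV-Null 4, and the other 4 AAV-Osm libraries lay above every control. Ackr1 averaged 0.781 ± 0.306 CPM in AAV-Osm (SD, n = 5) and 0.278 ± 0.0796 CPM in AAV-Null (SD, n = 4), and its log2 fold change was 1.5 (SE 0.39, edgeR adjusted p = 0.440). No AAV-Osm library had a counting interval clear of the highest control bound, 0.771 CPM. Over 21 alternatives the log2 fold change ran from 1.29 to 1.78 and the adjusted p from 0.0829 to 0.798. These are not the same 21 as for Selp. Some planned fits did not test Ackr1, and fits without the low-count filter, chosen after seeing the data, were added. The highest adjusted p came from such an added fit, without AAV-Osm 1.

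Both genes had passed a level that the table fits through their AAV-Osm libraries. Every gene in it exceeded 0.5 CPM, counted over unscaled totals, in at least 4 libraries. Selp exceeded that level in 5 AAV-Osm and 1 AAV-Null library, and Ackr1 in 4 AAV-Osm and 0 AAV-Null libraries. If that level was the rule for listing, which is not stated, a gene this rare could be listed only if it was higher in AAV-Osm, so their presence is no support for the difference. Of all genes, 10 had 0 AAV-Null and at least 4 AAV-Osm libraries above the level, Ackr1 among them, 57 had at most 1 AAV-Null and at least 4 AAV-Osm libraries above it, and 8 had all 4 AAV-Null and at most 1 AAV-Osm library above it. Vcam1, Icam1 and Icam2 exceeded it in all 9 libraries.

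**Figure D1:**
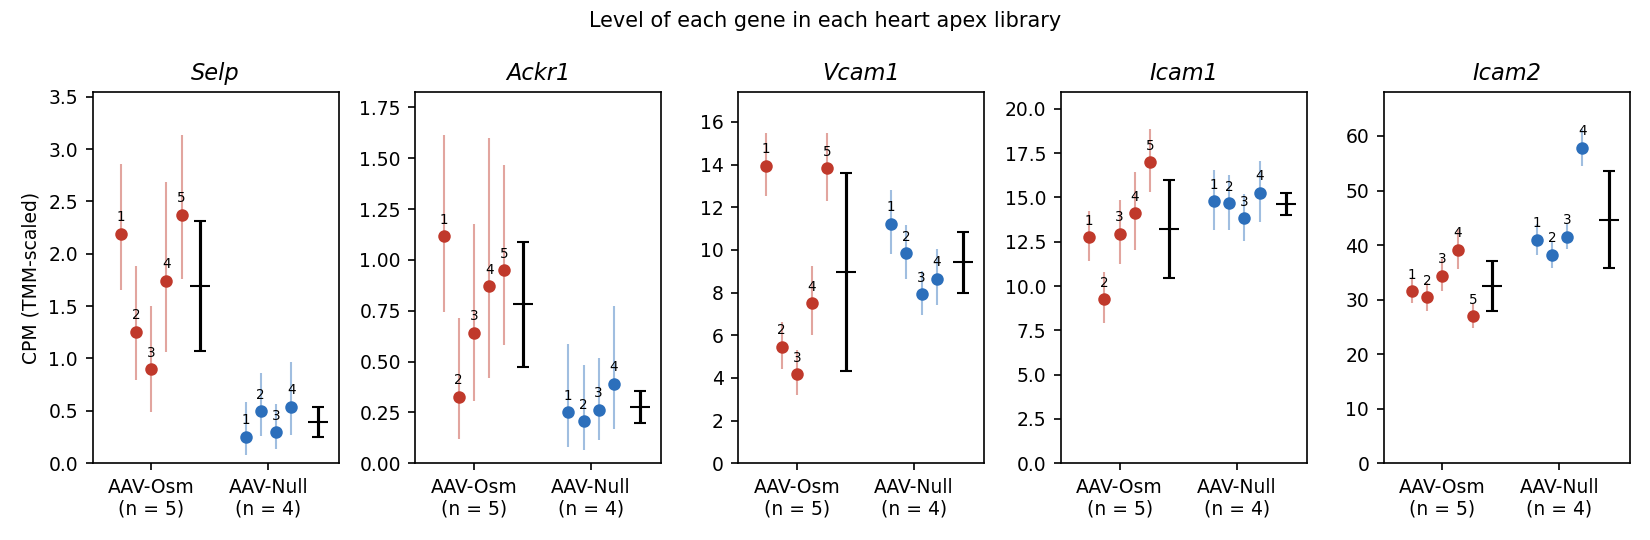
Level of each of the 5 genes in each library, as TMM-scaled CPM on the vertical axis (linear, from 0), AAV-Osm in red and AAV-Null in blue; numbers are library numbers, thin bars are exact 95% Poisson intervals, and black bars are the mean ± SD of the group. All 5 AAV-Osm libraries lie above all AAV-Null libraries for Selp, 4 of 5 do for Ackr1, and the groups overlap for Vcam1, Icam1 and Icam2.

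Vcam1, the alpha4 integrin ligand, had similar means in both groups and was widely spread among AAV-Osm hearts. Vcam1 (chromosome 3, 116110020 to 116129688, minus strand) was at 14.0, 5.45, 4.17, 7.49 and 13.8 CPM in AAV-Osm 1 to 5, against 11.2, 9.84, 7.93 and 8.66 CPM in AAV-Null 1 to 4. AAV-Osm 1 and AAV-Osm 5 lay above every control and the other 3 AAV-Osm libraries lay below every control. The coefficient of variation was 51.7% in AAV-Osm and 15.4% in AAV-Null, with 65 to 350 reads per library. The means were 8.97 ± 4.64 CPM in AAV-Osm (SD, n = 5) and 9.41 ± 1.45 CPM in AAV-Null (SD, n = 4), and the log2 fold change was -0.05 (SE 0.32, edgeR adjusted p = 0.995).

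AAV-Osm 1 and AAV-Osm 5, the libraries with the most Vcam1, were also those with the most Selp and Ackr1 of all 9. These libraries had the lowest summed cardiomyocyte markers, at 75797 and 77701 CPM, against 94854 to 101801 CPM in the other AAV-Osm libraries. Their summed platelet markers were also the highest of the AAV-Osm group, at 51.3 and 55.0 CPM, against 21.6 to 31.0 CPM in the others. Their summed capillary markers were the highest of all 9 libraries, at 2255 and 2202 CPM, against 1516 to 1784 CPM in the other AAV-Osm libraries. Cd36 and Fabp4, at means of 978 and 581 CPM in AAV-Osm, made up most of that sum (mean 1893 CPM). Gpihbp1 and Timp4 of the same list were lower in every AAV-Osm library than in any control. The pan-endothelial sums of AAV-Osm 1 and AAV-Osm 5, 1192 and 1115 CPM, lay below every control, and that of AAV-Osm 5 was the lowest of all 9 libraries. Summed venous markers were highest of all 9 libraries in AAV-Osm 1, at 1089 CPM, and stood at 783 CPM in AAV-Osm 5. The part of any of these cell types in the levels of Selp, Ackr1 and Vcam1 was not tested.

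Icam1 encodes the cytokine-inducible ligand of the beta2 integrins. Icam1 (chromosome 9, 21015960 to 21028796, plus strand) was at 12.8, 9.26, 12.9, 14.1 and 17.0 CPM in AAV-Osm 1 to 5, against 14.8, 14.7, 13.8 and 15.3 CPM in AAV-Null 1 to 4. The controls lay close together, with a coefficient of variation of 4.12%, and AAV-Osm libraries lay on both sides of them (21.1%), AAV-Osm 5 highest and AAV-Osm 2 lowest. Icam1 averaged 13.2 ± 2.78 CPM in AAV-Osm (SD, n = 5) and 14.6 ± 0.603 CPM in AAV-Null (SD, n = 4), and the log2 fold change was -0.15 (SE 0.17, edgeR adjusted p = 0.961).

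Icam2, present on resting endothelium, was the most abundant member. Icam2 (chromosome 11, 106377656 to 106382641, minus strand) was at 31.5, 30.5, 34.4, 39.1 and 26.9 CPM in AAV-Osm 1 to 5, against 41.0, 38.3, 41.5 and 57.8 CPM in AAV-Null 1 to 4. Of the AAV-Osm libraries 4 lay below every control, and AAV-Osm 4 lay just above AAV-Null 2, the lowest control. The means were 32.5 ± 4.56 CPM in AAV-Osm (SD, n = 5) and 44.6 ± 8.90 CPM in AAV-Null (SD, n = 4), and the log2 fold change was -0.46 (SE 0.16, edgeR adjusted p = 0.622). AAV-Null 4 stood apart from the other controls, and without it the log2 fold change was -0.31.

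Per kilobase of summed exon length, the order of levels was the same in both groups. In AAV-Osm hearts the mean was 28.4 CPM per kb for Icam2, 5.20 for Icam1, 2.64 for Vcam1, 0.674 for Ackr1 and 0.492 for Selp. In AAV-Null hearts it was 39.1 CPM per kb for Icam2, 5.76 for Icam1, 2.77 for Vcam1, 0.240 for Ackr1 and 0.115 for Selp. Icam2 lay above Icam1 in every library, and Vcam1 above Ackr1. Icam1 and Vcam1 overlapped in range among AAV-Osm libraries (3.65 to 6.69 and 1.23 to 4.11 CPM per kb) and not among AAV-Null libraries. Ackr1 and Selp likewise overlapped in AAV-Osm (0.282 to 0.964 and 0.261 to 0.691 CPM per kb) and not in AAV-Null (0.178 to 0.338 and 0.0729 to 0.156).

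Because apex tissue is a mixture, fewer cells of a type and less RNA per cell cannot be told apart in these libraries. The members were therefore also set against the summed CPM of the 16 pan-endothelial genes. Selp stood at 0.142 ± 0.0577% of that sum in AAV-Osm (SD, n = 5) and 0.0298 ± 0.00969% in AAV-Null (SD, n = 4), and all 5 AAV-Osm libraries again lay above every control. Ackr1 stood at 0.0282% to 0.0936% in AAV-Osm and 0.0170% to 0.0249% in AAV-Null, so that on this scale its groups did not overlap. On it 1.84% of all genes were higher with no overlap and 0.553% were lower, against 1.05% and 1.23% in plain CPM, where Selp was the only member without overlap.

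The most abundant member was lower on this scale. Icam2 stood at 2.65%, 2.62%, 2.64%, 3.09% and 2.41% of the pan-endothelial sum in AAV-Osm 1 to 5, against 3.14%, 3.17%, 3.46% and 3.68% in AAV-Null 1 to 4. All 5 AAV-Osm libraries were below the lowest control, although in the fit relative to pan-endothelial counts the log2 fold change was -0.33 (SE 0.14, edgeR adjusted p = 0.753). That scaling raised the median log2 fold change of all genes by 0.12. Vcam1 and Icam1 overlapped on it as before, with means of 0.758% and 1.10% in AAV-Osm and 0.722% and 1.12% in AAV-Null.

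**Figure D2:**
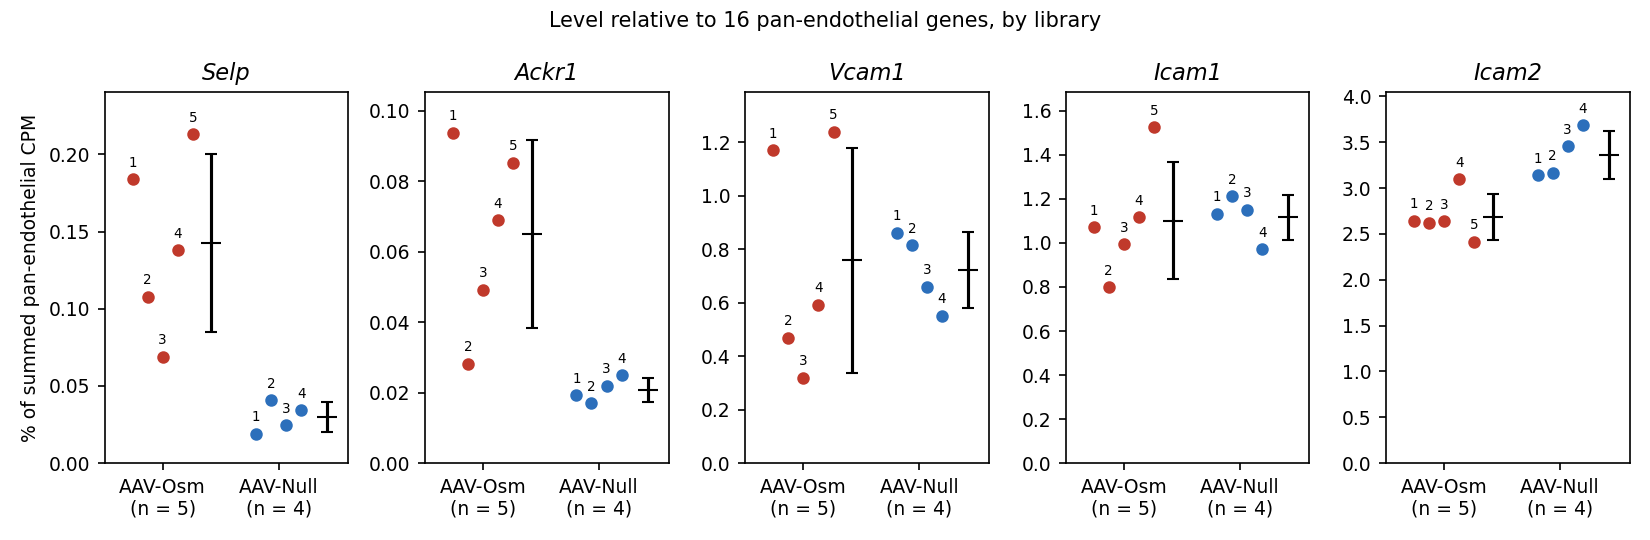
Each gene's CPM as a percent of the summed CPM of 16 pan-endothelial genes in the same library (vertical axis, linear, from 0), AAV-Osm in red and AAV-Null in blue, with library numbers and black bars for the mean ± SD. Selp and Ackr1 are higher and Icam2 is lower in all 5 AAV-Osm libraries than in any AAV-Null library, at means of 2.68% in AAV-Osm and 3.36% in AAV-Null for Icam2; 1.84% of all genes were higher and 0.553% lower with no overlap on this scale.

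The direction of the differences held for 4 of the 5 genes under every alternative that gave a value. Icam2 had log2 fold changes of -0.53 to -0.25 and Icam1 of -0.31 to -0.02, and neither was called in any alternative. Vcam1 ran from -0.52 with limma-voom and quality weights to 0.12 without AAV-Osm 3, and its sign turned in 5 of 21 alternatives.

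**Figure D3:**
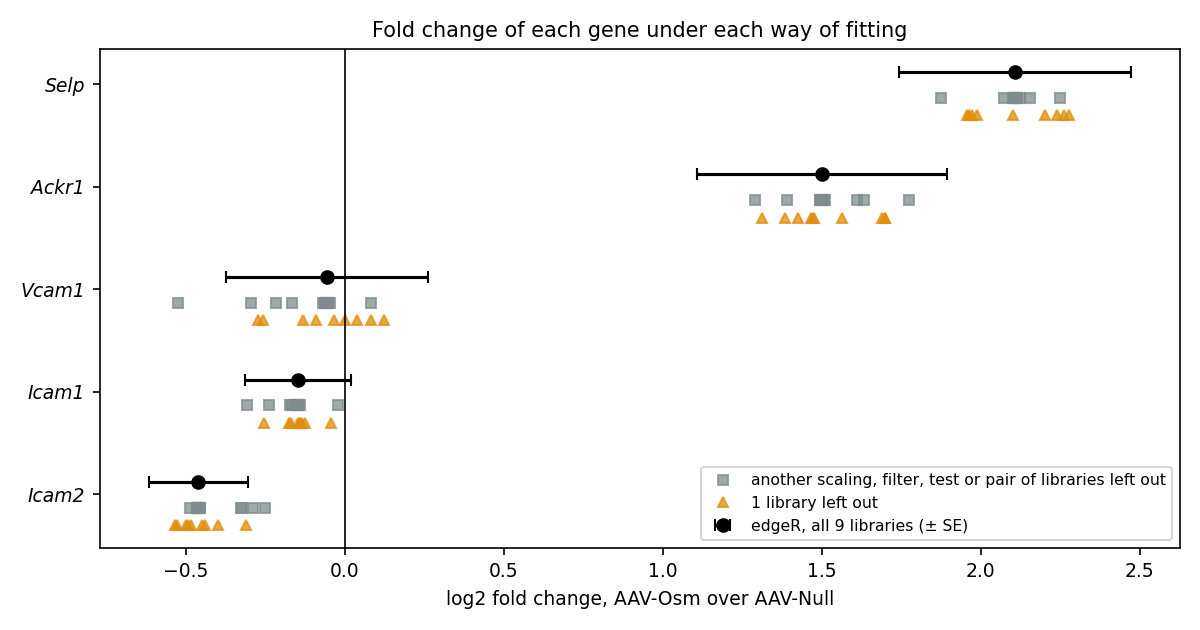
Log2 fold change of each gene, AAV-Osm over AAV-Null (horizontal axis), in edgeR with all 9 libraries (black, ± SE), with 1 library left out (orange triangles) and under the other alternatives (grey squares). Selp (1.88 to 2.28) and Ackr1 (1.29 to 1.78) stay right of 0, Icam1 and Icam2 stay left of it, and Vcam1 lies on both sides.

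Of the cell types that carry these molecules, endothelial subtypes were compared first. Among 14 venous markers 0 rose and 0 fell in edgeR or DESeq2. At an unadjusted p of 0.05 edgeR gave 2 higher and 0 lower, beside 2.89% and 3.09% of all genes. For these markers limma-voom with quality weights called 1 higher, Il6st, the gene of gp130. Their median log2 fold change was 0.11, beside 0.01 over all genes, and their sum ran from 712 to 1089 CPM in AAV-Osm and 624 to 954 CPM in AAV-Null libraries. Nr2f2, which encodes the transcription factor that sets venous identity, was at 15.6 ± 5.32 CPM in AAV-Osm (SD, n = 5) and 18.4 ± 5.15 CPM in AAV-Null (SD, n = 4). Tmem252, the venous marker with the lowest level, was at 0.601 ± 0.311 CPM in AAV-Osm (SD, n = 5) and 0.218 ± 0.0779 CPM in AAV-Null (SD, n = 4), and the log2 fold change was 1.43 (SE 0.53, edgeR adjusted p = 0.690). Its highest AAV-Null library was at 0.329 CPM, so it too had passed the level of 0.5 CPM through AAV-Osm libraries only. The presence of Tmem252 among the listed genes is therefore no support for its difference. A venular origin of the Selp and Ackr1 reads was not tested in this bulk tissue.

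Arterial and capillary markers gave 0 calls in edgeR or DESeq2. Among 12 arterial markers 1 was higher and 0 lower at an unadjusted p of 0.05, and the median log2 fold change was 0.00. Among 12 capillary markers 1 was higher and 5 lower at an unadjusted p of 0.05, where 2.89% and 3.09% of all genes were. The median of the capillary markers was -0.15, and limma-voom with quality weights called 2 lower, Rgcc and Tcf15. Gpihbp1, the capillary anchor of lipoprotein lipase, was at 72.4 ± 12.9 CPM in AAV-Osm (SD, n = 5) and 108 ± 28.8 CPM in AAV-Null (SD, n = 4). It was among the 2 of 12 capillary markers that were lower in AAV-Osm with no overlap, where 1.23% of all genes were. The part of these endothelial subtypes in the Icam2 level was not tested.

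Platelets also hold P-selectin and Icam2. Of 14 platelet and megakaryocyte markers 9 were in the table, and 0 rose and 0 fell in edgeR, DESeq2 or limma-voom with quality weights (0 higher and 1 lower at an unadjusted p of 0.05 in edgeR). Their sum ran from 21.6 to 55.0 CPM in AAV-Osm and from 27.1 to 66.9 CPM in AAV-Null libraries, highest in AAV-Null 4. The Selp level of AAV-Null 4, 0.538 CPM, was the highest of the controls and below that of every AAV-Osm library. Within AAV-Osm, AAV-Osm 5 had both the highest platelet sum and the most Selp, at 55.0 and 2.37 CPM. AAV-Osm 2, with the lowest platelet sum, did not have the least Selp of its group. The part of platelets in the Selp level was not tested. Clec1b was at 0 in at least 1 library, and Gp1ba, Gp5, Gp6 and F2rl2 are among the markers not analysed here. Pf4, a platelet chemokine, was at 17.0 ± 3.77 CPM in AAV-Osm (SD, n = 5) and 24.8 ± 8.73 CPM in AAV-Null (SD, n = 4). But 8 of the 9 markers had a positive log2 fold change (median 0.45), as did 6846 of all 13192 genes.

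Red cells are the other carriers of Ackr1 in humans. Of 12 erythroid markers 4 were in the table, and 0 rose and 0 fell in edgeR, DESeq2 or limma-voom with quality weights (1 higher and 0 lower at an unadjusted p of 0.05 in edgeR). Their sum ran from 98.6 to 250 CPM in AAV-Osm and from 125 to 232 CPM in AAV-Null libraries. AAV-Osm 1 had the highest erythroid sum and the most Ackr1 of all 9 libraries, at 250 and 1.12 CPM, and AAV-Osm 4, with the lowest erythroid sum, had 0.871 CPM of Ackr1. AAV-Null 4 was the highest control for both, at 232 CPM of erythroid transcripts and 0.391 CPM of Ackr1. The part of red cells in the Ackr1 level was not tested. Globin genes were not analysed here.

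Vcam1 and Icam1 are also made outside the endothelium, by mesothelial, mural and blood cells. All 9 mesothelial markers had negative log2 fold changes (median -1.16), as did 48.1% of all genes. Of these markers 0 rose and 0 fell in edgeR, DESeq2 or limma-voom with quality weights. Beside 2.89% higher and 3.09% lower over all genes, 0 of the mesothelial markers were higher and 6 lower at an unadjusted p of 0.05 in edgeR. Their sum ran from 11.2 to 52.0 CPM in AAV-Osm and from 49.1 to 149 CPM in AAV-Null libraries. AAV-Osm 5, with the lowest mesothelial sum, had the most Icam1 and AAV-Null 4, with the highest, had the next most. Of 18 leukocyte markers and 11 mural markers 0 rose and 0 fell in the same 3 tools; at an unadjusted p of 0.05 in edgeR 1 leukocyte marker was higher and 1 lower, and 0 mural markers were higher and 1 lower. Their sums were 306 to 418 CPM in AAV-Osm and 264 to 617 CPM in AAV-Null for leukocyte genes, and 393 to 438 CPM in AAV-Osm and 358 to 511 CPM in AAV-Null for mural genes. The part of these cells in the levels of Vcam1 and Icam1 was not tested. In the lymphatic, endocardial, fibroblast and liver-type lists 0 genes rose and 0 fell in edgeR or DESeq2, with 0 higher in any of them and 1, 0, 1 and 2 lower in that order at an unadjusted p of 0.05 in edgeR, and limma-voom with quality weights called 1 lymphatic marker lower.

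**Figure D4:**
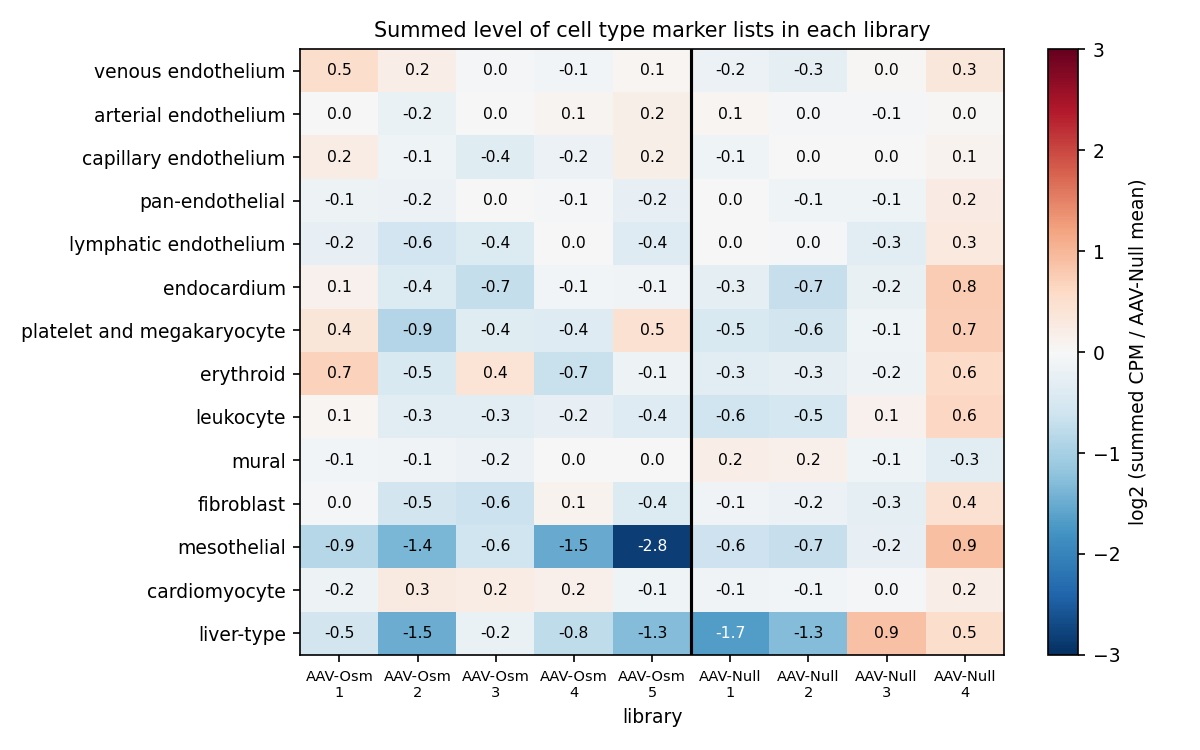
Summed CPM of 14 marker lists (rows) in each library (columns, AAV-Osm left of the black line and AAV-Null right of it), as log2 of the ratio to the AAV-Null mean of that list; red is above and blue below it. Pan-endothelial and arterial sums vary little, mesothelial and liver-type sums vary most, and no list separates the groups.

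The wider adhesion cascade was described by a list of 54 other genes, of which 46 were in the table. In edgeR 0 of these rose, 1 fell and 45 missed the threshold, and the median log2 fold change was -0.02, beside 0.01 over all genes. The gene that fell was Ccl2, a monocyte-attracting chemokine, at 2.12 ± 0.189 CPM in AAV-Osm (SD, n = 5) and 5.46 ± 0.848 CPM in AAV-Null (SD, n = 4), and the log2 fold change was -1.35 (SE 0.18, edgeR adjusted p = 0.0116). DESeq2 and limma-voom with quality weights called Ccl2 and also Cxcl9, an interferon-induced chemokine. DESeq2 called 51 genes in all (0.387%) and limma-voom with quality weights 170 (1.29%). Leaving out AAV-Osm 2 or AAV-Null 2 ended the edgeR call of Ccl2, at adjusted p-values of 0.0531 and 0.0845.

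Selplg, the P-selectin ligand of leukocytes, was at 5.75 ± 0.982 CPM in AAV-Osm (SD, n = 5) and 6.63 ± 1.23 CPM in AAV-Null (SD, n = 4), and its log2 fold change was -0.21 (SE 0.18). Sele, the inducible endothelial selectin, was not analysed here. F5, the coagulation factor V gene beside Selp on chromosome 1, was at 0.35 (SE 0.69) on the log2 fold change scale, and neither Selplg nor F5 passed.

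The integrins that bind the immunoglobulin-family members did not pass. Itgb2, the beta2 chain that pairs with Itgal and Itgam to bind Icam1 and Icam2, was at 6.20 ± 1.45 CPM in AAV-Osm (SD, n = 5) and 6.34 ± 0.270 CPM in AAV-Null (SD, n = 4). Itga4, the chain that binds Vcam1, was at 1.51 ± 0.368 CPM in AAV-Osm (SD, n = 5) and 1.34 ± 0.384 CPM in AAV-Null (SD, n = 4). The log2 fold changes of Itgal, Itgam and Itgb1 were 0.37, -0.07 and -0.05. Junction genes through which leukocytes pass also did not, with Pecam1 at -0.06 (SE 0.15), Cdh5 at -0.10 (SE 0.16) and Esam at -0.18 (SE 0.12).

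**Figure D5:**
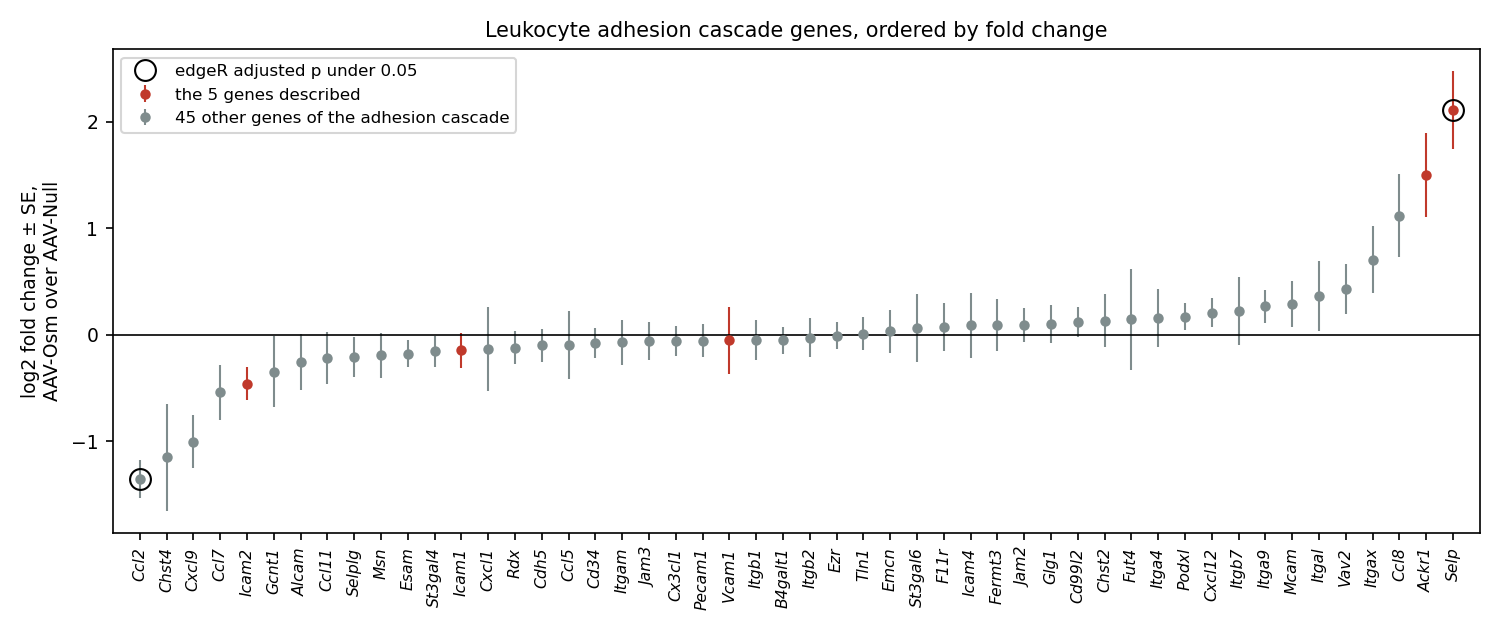
Log2 fold change ± SE, AAV-Osm over AAV-Null (vertical axis), of the 5 genes described (red) and 45 of the 46 other genes of the adhesion cascade (grey), ordered by fold change; circled points passed an edgeR adjusted p of 0.05. Selp and Ackr1 stand at the right end and Ccl2 at the left, with most genes close to 0.

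Besides Ackr1, a list of 5 genes for atypical or proposed chemokine receptors was tested. Of these 0 rose or fell in edgeR, DESeq2 or limma-voom with quality weights. At an unadjusted p of 0.05 edgeR gave 2 higher and 1 lower, beside 2.89% and 3.09% of all genes. Ackr2, which degrades inflammatory chemokines, was at 1.81 ± 0.728 CPM in AAV-Osm (SD, n = 5) and 0.956 ± 0.125 CPM in AAV-Null (SD, n = 4). Its groups did not overlap, where 1.05% of all genes were higher with no overlap (log2 fold change 0.94, SE 0.30, edgeR adjusted p = 0.579). Ackr4, another scavenger, was at 4.36 ± 1.12 CPM in AAV-Osm (SD, n = 5) and 6.33 ± 1.55 CPM in AAV-Null (SD, n = 4). Ackr3, the scavenger of Cxcl12, was at 50.0 ± 18.8 CPM in AAV-Osm (SD, n = 5) and 59.4 ± 12.6 CPM in AAV-Null (SD, n = 4).

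For receptors of cytokines that act on endothelium, 13 genes were listed. In edgeR 1 rose, 0 fell, and 12 missed the threshold. At an unadjusted p of 0.05 edgeR gave 4 higher and 0 lower, beside 2.89% and 3.09% of all genes. DESeq2 called 1 higher, and limma-voom with quality weights 2, Csf2rb and Il6st. The gene that rose was Csf2rb, the shared beta chain of the interleukin-3 receptor family, at 16.6 ± 2.15 CPM in AAV-Osm (SD, n = 5) and 2.17 ± 0.276 CPM in AAV-Null (SD, n = 4). Its log2 fold change was 2.94 (SE 0.17, edgeR adjusted p = 3.62e-06), a result that was known when the list was written. The median of the list was 0.26 and 11 of 13 log2 fold changes were positive, as were 6846 of 13192 over all genes. Osmr, the receptor chain specific to oncostatin M, was at 12.2 ± 4.33 CPM in AAV-Osm (SD, n = 5) and 6.75 ± 1.39 CPM in AAV-Null (SD, n = 4), with overlap. Its log2 fold change was 0.86 (SE 0.25, edgeR adjusted p = 0.497). Tnfrsf1a and Il1r1, receptors for the cytokines that classically induce Vcam1 and Icam1, had log2 fold changes of 0.26 (SE 0.16) and 0.25 (SE 0.39).

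The genes whose profile over the 9 libraries lay closest to each member were found by the mean absolute difference of standardised log2 CPM, a description with no test. For Selp these were Cdc14a, a phosphatase gene that lies beside Vcam1 (0.271 SD), Scgb3a1, a secretoglobin (0.277), and Slc30a1, a zinc transporter (0.286), where the median of the 13069 genes compared was 1.09. Scgb3a1 itself rose, at 2.76 ± 1.25 CPM in AAV-Osm (SD, n = 5) and 0.327 ± 0.121 CPM in AAV-Null (SD, n = 4), with an edgeR adjusted p of 0.00496. Its highest AAV-Null library was at 0.489 CPM, so like Ackr1 it had passed the level of 0.5 CPM through AAV-Osm libraries only. The presence of Scgb3a1 among the listed genes is therefore no support for its difference. For Ackr1 they were Ccl8, a chemokine gene (0.266), Col14a1, a fibril-associated collagen (0.269), and C4b, a complement component (0.284). C4b rose, at 58.3 ± 17.6 CPM in AAV-Osm (SD, n = 5) and 19.0 ± 7.23 CPM in AAV-Null (SD, n = 4), with an edgeR adjusted p of 0.0369. Ccl8 is itself a monocyte chemoattractant and was at 3.05 ± 1.27 CPM in AAV-Osm (SD, n = 5) and 1.43 ± 0.701 CPM in AAV-Null (SD, n = 4), and the log2 fold change was 1.12 (SE 0.39, edgeR adjusted p = 0.644). Ackr1 was 25 in order of closeness to Selp, at 0.386 SD, and Selp was 14 in order of closeness to Ackr1. The profiles share libraries, and genes that differ between the groups in the same direction lie close on this measure whatever else they share.

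The other members had different nearest profiles. For Vcam1 they were Gnb1 (0.160 SD), Fen1 (0.165) and Prss23 (0.175), for Icam1 Cdc42ep2 (0.224), Sertad3 (0.247) and Snx18 (0.263), and for Icam2 Csk (0.162), Klk8 (0.183) and Crip1 (0.193). Prss23 was at 8.28 ± 3.40 CPM in AAV-Osm (SD, n = 5) and 8.37 ± 1.09 CPM in AAV-Null (SD, n = 4), the wide AAV-Osm spread that Vcam1 also had. Icam1 and Icam2 were 0.732 SD apart, and Vcam1 and Icam1 0.668 SD apart. Selp and Icam2 were 1.54 SD apart, the widest of the 10 pairs of members.

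No other gene of the table overlaps a member in the coordinates given there. In GENCODE M21 on the same assembly, Cadm3 overlaps the 5' end of Ackr1 on the same strand, and antisense or other noncoding genes overlap Selp, Vcam1 and Icam1 on the opposite strand. The strand setting of the counting is not given in the sources used here, so reads of the opposite-strand partners cannot be told apart from those of the members. Cadm3 and Ackr1 share a strand, so no strand setting would separate their reads where they overlap. Cadm3, as counted in the table, was at 5.19 ± 1.43 CPM in AAV-Osm (SD, n = 5) and 3.87 ± 0.715 CPM in AAV-Null (SD, n = 4), and the log2 fold change was 0.42 (SE 0.22, edgeR adjusted p = 0.883), and its part in the Ackr1 counts was not tested.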

How the data were processed

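RNA from the heart apex of 9 samples (5 AAV-Osm, 4 AAV-Null) was read as 75 base paired ends from mRNA libraries, per the labels' protocols. The authors deposited raw counts per gene. STAR 2.5.2b, featureCounts and Subread 1.5.1 with mm10 are named in the submitters' processing notes; for annotation, strandedness and multimapped reads the setting is not given in the sources used here. Each gene's deposited summed exon length (in bases, unit other) was used for levels per kilobase. The table held 13192 named genes and 4141 blank lines without values, which were left out.

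The test was edgeR 4.0.16 under R 4.3.3 (TMM scaling, filterByExpr, robust two-sided quasi-likelihood F test, group as the only term), with Benjamini-Hochberg adjustment over all 13192 genes. SEs were taken from the F statistic. DESeq2 1.42.0, limma 3.58.1 (voom), other scalings and filters, and fits without libraries were alternatives.

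The members and all gene lists were chosen with earlier results of these data known. Named genes were the members, their 3 nearest profiles (genes with a mean of at least 0.5 CPM, prior count 2), list genes past the threshold, and neighbours; the other list genes were chosen by role after their values were seen. Libraries were numbered within groups as names only. Some genes of the lists are not reported here by name.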

Additional observations from a re-analysis of the deposited data

Results flagged for a closer look

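Each group of 4 or 5 libraries was examined for a library far from the others by Dixon's test, over the 5 members and 14 marker lists, and 3 of 38 groups met the 95% critical value, where chance flags about 1 in 20. Icam2 was at 57.8 CPM in AAV-Null 4, against 38.3 to 41.5 CPM in the other AAV-Null libraries. The summed erythroid markers were at 232 CPM in AAV-Null 4, against 125 to 139 CPM in the other AAV-Null libraries. The summed leukocyte markers were at 418 CPM in AAV-Osm 1, against 306 to 336 CPM in the other AAV-Osm libraries.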

How the results depend on the processing

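No paired analysis was possible because the labels give the libraries no replicate numbers. The number of genes called was 51 with DESeq2 (24 higher, 27 lower) and 170 with limma-voom and quality weights (79 higher, 91 lower). With counts scaled to pan-endothelial transcripts, and again without AAV-Osm 5 and AAV-Null 4, 3 genes were lower. With 1 library left out the count ran from 4 to 11, with 4 to 7 higher and 0 to 6 lower; edgeR called 0 lower without AAV-Osm 2 (276 at an unadjusted p of 0.05) and without AAV-Null 2 (370). The Selp call ended at log2 fold changes of 2.11 with upper-quartile factors, 2.10 with total counts, 2.11 without robust estimation, 2.07 with limma-voom without weights, 2.15 without AAV-Null 3 and AAV-Null 4 and 2.12 without AAV-Osm 5 and AAV-Null 4, and it ran from 1.96 to 2.28 with 1 library left out. Its adjusted p ran from 0.000291 to 0.238 over the alternatives, and the Selp call held in 7 of 21. Among those 7 is the fit of all 9 libraries without the low-count filter. It only repeated the main fit, because the filter had dropped none of the 13192 genes. The Vcam1 log2 fold change turned to 0.0818 relative to pan-endothelial counts and ran from -0.27 to 0.12 with 1 library left out (0.08, 0.12 and 0.00 without AAV-Osm 2, 3 and 4, and 0.04 without AAV-Null 1). The filter on low counts dropped Ackr1 from 4 of the fits that left out an AAV-Osm library, and fits without that filter, chosen after seeing the data, gave 1.31 to 1.70. At 1 CPM in 4 libraries Ackr1 was not tested. The causes were not tested. Depth limits Selp and Ackr1 most, at 5 to 55 and 5 to 28 reads per library.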
